A study of Mus musculus with 180 samples.

Results

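AZD-8186 and TG-100115 are inhibitors of class I phosphoinositide 3-kinases (PI3Ks) that each act on some isoforms of the enzyme rather than on all of them. They were chosen by their treatment labels, which gave 6 of the 180 RNA-seq libraries of the series, 3 for each compound, and made them 2 of the 58 clinical kinase inhibitors (CKIs) tested. All libraries came from mouse bone marrow-derived macrophages (BMDMs), grown in culture from bone marrow cells of young adult male mice of a C57BL/6 background, with no genetic change. Each culture first received AZD-8186, TG-100115 or the vehicle DMSO for 1 h, and LPS, the bacterial ligand of TLR4, was then added at 10 ng/mL for 2 h. Every group described here therefore carried LPS, and no unstimulated group entered the comparisons. The DMSO reference consisted of 6 libraries, which the labels divide into 2 sets of 3, and the methods describe the replicates as independent biological ones.

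Class I PI3Ks phosphorylate the membrane lipid PIP2 to PIP3, which recruits proteins with lipid-binding domains such as the kinase AKT and exchange factors of small GTPases. AKT in turn restrains FOXO transcription factors and acts on mTORC1. The catalytic isoforms are alpha (Pik3ca), beta (Pik3cb), delta (Pik3cd) and gamma (Pik3cg). Delta and gamma are the forms typical of leukocytes, and in macrophages PI3K activity is known to shape TLR4 signalling, cell movement and phagocytosis. AZD-8186 is known as an inhibitor of the beta and delta isoforms, TG-100115 as one of gamma and delta.

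The study set the concentration of each compound by the affinity of 1 assigned target in a binding assay on cell lysate rather than by PI3K inhibition. That target was DNA topoisomerase II beta (Top2b) for AZD-8186 and deoxycytidine kinase (Dck) for TG-100115, and TG-100115 was given at a far lower concentration than AZD-8186. The concentrations therefore differ, values of the compounds are set side by side and no test was made between them. How far each PI3K isoform was inhibited was not measured in these libraries.

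The values are normalized read counts on exons, summing to between 9481416 and 11722511 in each of the 12 libraries of the 2 compounds and DMSO. All 24 macrophage identity genes were detected at a mean of at least 10 over these libraries, and 22 of 31 markers of other cell types were below it. Among the rest Pf4, listed as a megakaryocyte marker, was far higher, at a mean of 4534 with DMSO. By limma, comparing the DMSO sets with each other gave 0 genes at an adjusted p under 0.05 (310 at an unadjusted p under 0.05). Mitochondrially encoded transcripts made up 0.301% to 1.05% of the values in the DMSO libraries (median 0.536%), 1.24%, 0.235% and 0.405% in replicates 1, 2 and 3 of AZD-8186 and 1.19%, 0.889% and 1.98% in those of TG-100115. Over all 180 libraries this share ran from 0.235% to 2.25%. AZD-8186 replicate 2 was the lowest of the series, and AZD-8186 replicate 1 and TG-100115 replicates 1 and 3 were above every DMSO library.

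The catalytic isoforms targeted by these compounds were all expressed. Per kilobase of cDNA, the mean level in the 6 DMSO libraries was 219 ± 39.5 (SD) for Pik3cd, 115 ± 34.8 for Pik3cg, 40.2 ± 13.7 for Pik3cb and 11.4 ± 4.28 for Pik3ca. The libraries of Pik3cd (160 to 273) did not overlap with those of Pik3cg (46.1 to 140), whereas the lowest Pik3cg library fell inside the range of Pik3cb (17.3 to 56.2) and the lowest Pik3cb library inside that of Pik3ca (7.30 to 18.2). Pik3r5, the large regulatory subunit of the gamma isoform, was the highest subunit at 2159 ± 520 per kilobase. Of the assigned targets, Dck was at 791 ± 43.2 per kilobase and Top2b at only 8.43 ± 2.50. These are transcript levels, and protein was not measured here.

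None of these targets was called with either compound in the test without pairing that is used below. Pik3cd was 1259, 1081 and 1120 in the AZD-8186 libraries and 1050, 1073 and 837 in those of TG-100115, against 862 to 1477 (median 1145) with DMSO. Its log2 fold change was -0.02 (95% interval -0.24 to 0.20) with AZD-8186 and -0.25 (-0.48 to -0.03) with TG-100115. For Pik3cb, the other isoform of AZD-8186, the interval with that compound was -0.57 to 0.29, and for Pik3cg, the other isoform of TG-100115, it was 0.04 to 0.81 with TG-100115. The groups overlapped in all 3 genes. Top2b was 55, 37 and 29 with AZD-8186 against 28 to 67 (median 47) with DMSO. Dck was 2406, 2382 and 1979 with TG-100115 against 2284 to 2554 (median 2420.5), with replicate 3 below the DMSO range.

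AZD-8186 lowered a small set of genes, and no gene passed the test in the upward direction. By limma's moderated test on log2(value + 1), with p-values adjusted by Benjamini-Hochberg over 12714 genes, 29 genes (0.228%) were lower than with DMSO at an adjusted p under 0.05 and 0 (0%) were higher, with 887 genes at an unadjusted p under 0.05. Their log2 fold changes ran from -2.35 (Ogfr) to -0.41 (Sgpl1) with a median of -1.10, while the median over all genes was 0.00. In 28 of the 29 genes all 3 AZD-8186 libraries lay below all 6 DMSO libraries, the exception being Ssx2ip, and over all genes 162 (1.27%) lay below in that way and 112 (0.881%) above. The count moved with single libraries. It was 17 without AZD-8186 replicate 1, 6 without replicate 3, 61, 12 and 16 without replicates 1, 2 and 3 of DMSO set 2, and 10 or 12 against either DMSO set alone.

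The deepest fall was in Ogfr, the opioid growth factor receptor (chr2:180589407-180595837 of mm10). It was 170, 222 and 109 in replicates 1, 2 and 3 of AZD-8186, against 474 to 1182 (median 923) with DMSO. The groups did not overlap, with a log2 fold change of -2.35 ± 0.38 (SE) and an adjusted p of 4.94e-05. The smallest adjusted p, 2.62e-05, belonged to Tspyl1 (chr10:34282190-34284885), a gene of the nucleosome assembly protein family whose span overlaps Gm26564. It was 723, 769 and 588 against 1350 to 1796 (median 1540.5), a change of -1.17 ± 0.18.

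**Figure D1:**
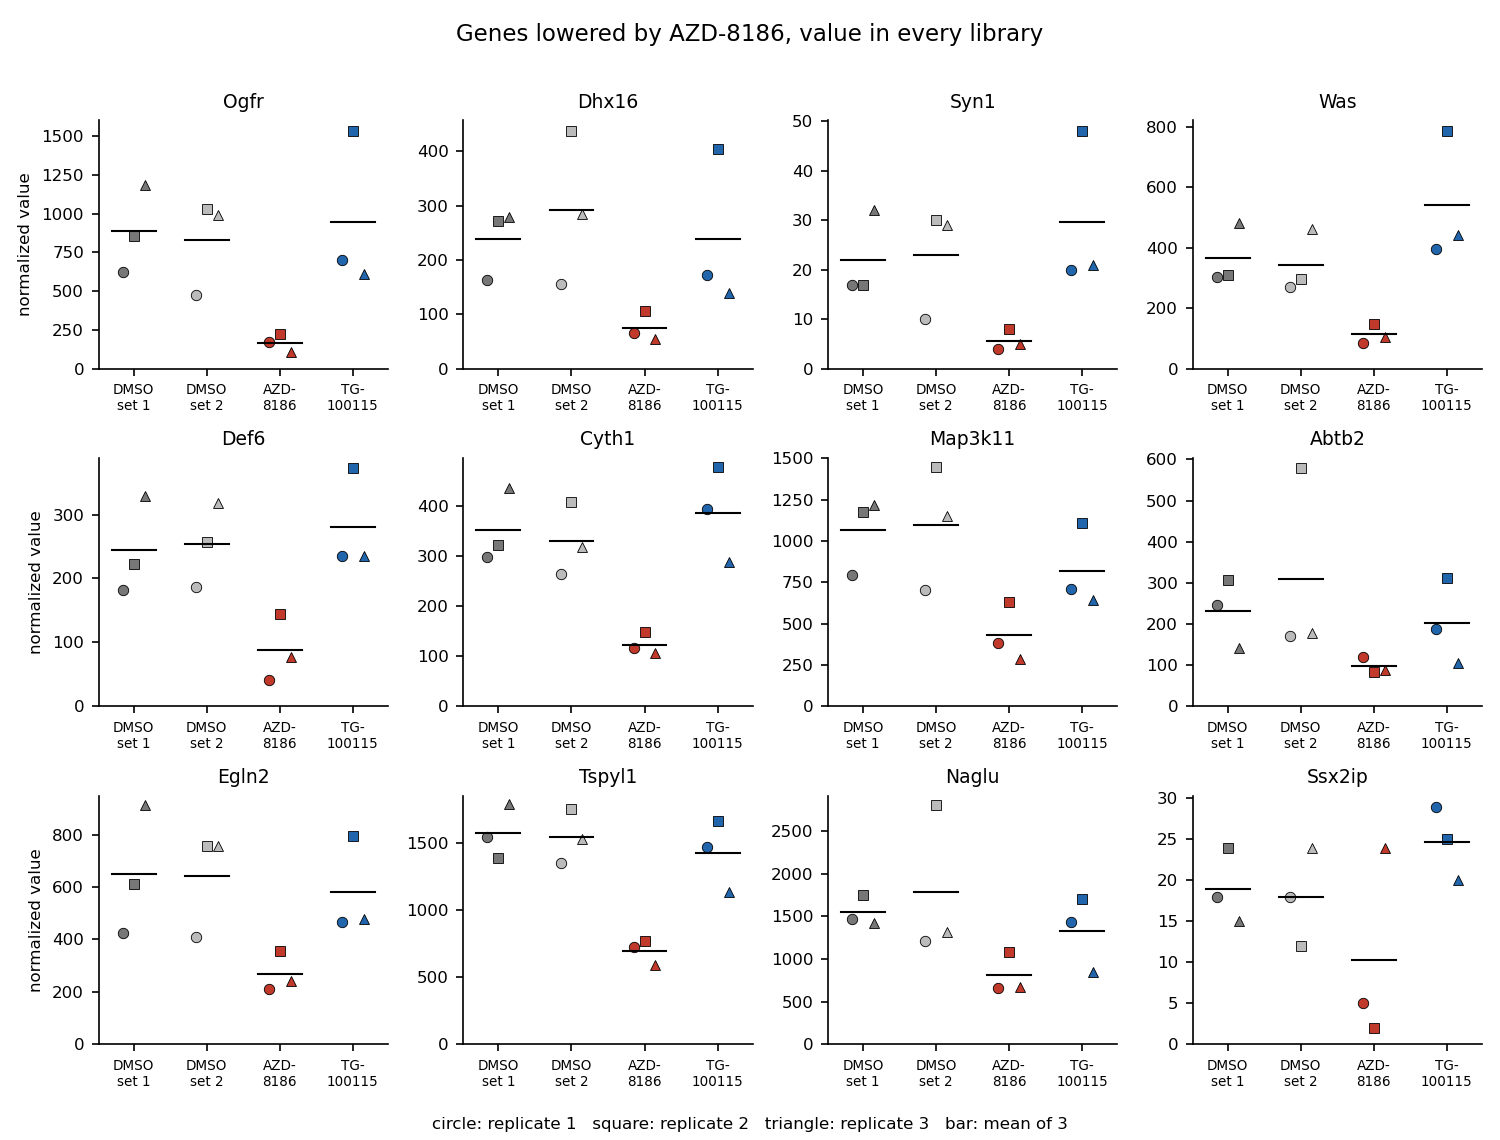
Normalized values of 12 genes lowered by AZD-8186, in each library of DMSO set 1, DMSO set 2, AZD-8186 and TG-100115; symbols mark replicates 1 to 3, bars are means of 3, and every vertical axis starts at 0. The red AZD-8186 points lie below all 6 grey DMSO points in each gene but Ssx2ip, where replicate 3 is at 24, and the blue TG-100115 points overlap with the DMSO points in every panel.

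Several of the lowered genes encode regulators of the actin cytoskeleton and of small GTPases. Was, the actin nucleation-promoting factor of blood cells that is mutated in Wiskott-Aldrich syndrome (chrX:8081466-8090491), was 86, 148 and 106 with AZD-8186 against 271 to 482 (median 307) with DMSO, a change of -1.63 ± 0.30 with an adjusted p of 6.06e-04. Cyth1, cytohesin 1, an exchange factor of ARF GTPases with a domain that binds PIP3, was 116, 148 and 106 against 265 to 437 (median 320), a change of -1.45 ± 0.27 with an adjusted p of 6.06e-04. Def6, an exchange factor of small GTPases, was 42, 145 and 77 against 182 to 329 (median 240), a change of -1.63 ± 0.36 with an adjusted p of 0.0149. In each of these genes replicate 2 was the highest of the AZD-8186 libraries and still below every DMSO library. Rasip1, a binding partner of Ras-family GTPases, was at a lower level, 46, 34 and 33 against 52 to 96 (median 74.5), with a change of -0.96 ± 0.19. This group was put together after the values were seen, and no list of such genes was tested.

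Signalling and metabolic enzymes and a potassium channel formed another group of the lowered genes, also named after the values were seen. Map3k11, the kinase MLK3 upstream of JNK, was 382, 629 and 284 against 701 to 1444 (median 1162.5), a change of -1.36 ± 0.25 with an adjusted p of 6.06e-04. Egln2, a prolyl hydroxylase of HIF alpha subunits, was 212, 357 and 240 against 408 to 914 (median 684), a change of -1.23 ± 0.28 with an adjusted p of 0.0266. In both genes replicate 2 was the highest of the AZD-8186 libraries and still below every DMSO library. The Golgi kinase gene Fam20c changed by -1.10, the potassium channel gene Kcnn4 by -1.11 and Sgpl1, the lyase that degrades sphingosine 1-phosphate, by -0.41.

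Some lowered genes belong to RNA handling and transcription, a group also named after the values were seen. Dhx16, an RNA helicase of pre-mRNA splicing, was 65, 106 and 55 against 156 to 438 (median 275.5), a change of -1.77 ± 0.39 with an adjusted p of 0.0121. Sertad2, a transcriptional coregulator gene, was 1012, 1019 and 918 against 1266 to 1779 (median 1365.5), a smaller change of -0.56 ± 0.11 with no overlap. Mxd1, a MAX partner that opposes MYC, changed by -0.81, the homeobox gene Meis3 by -1.09 and the mRNA-binding protein gene Igf2bp2 by -0.54.

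Naglu, the lysosomal alpha-N-acetylglucosaminidase, was 660, 1088 and 674 against 1212 to 2812 (median 1446.5), with an adjusted p of 0.0469, close to the threshold, and 1 high DMSO library. Atg3, an enzyme of LC3 lipidation, changed by -0.74. The other lowered genes were Abtb2 (-1.31), Ehd4 (-0.71), Fez2 (-0.95), Mob1a (-0.85), Pde6d (-1.10), Sco1 (-0.78), Ssx2ip (-1.31), Syn1 (-1.76), Wac (-0.65) and the pair Fam177a and Fam177a2 (-1.13 and -1.12). This pair has nearly the same values in every library and nearly the same name, and reads of such copies may not be assignable to either gene. Syn1 was at 10 to 32 in the DMSO libraries, and its span overlaps Araf, Timp1 and a miRNA gene, from whose reads its own cannot be told apart with certainty. Abtb2, Fez2, Mxd1, Rasip1 and Sertad2 also overlap another annotated gene.

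Against the mean of the other 56 CKIs, which replaces the DMSO libraries but keeps the same AZD-8186 libraries, 3 genes (0.0236%) were lower and 0 (0%) higher. These were Was (-1.24, adjusted p = 0.0141, range over its alternatives 2.10e-05 to 0.0716), Rasip1 (-0.75, 0.0317, range 7.29e-04 to 0.813) and Ssx2ip (-1.53, 0.00132, range 9.89e-05 to 1). The last rests on low values of 5, 2 and 24, in which replicate 3 equals the highest DMSO library. For Ogfr the change on this reference was -1.36 with an adjusted p of 0.0876 (range 4.96e-06 to 0.0876), and the median over the 29 genes was -0.56, against -1.10 with the DMSO reference and -0.05 over all genes.

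In the upward direction with AZD-8186, the 5 genes with the smallest p-values are given as values only. Fosb, an AP-1 subunit and immediate-early gene, was 73, 76 and 77 in the AZD-8186 libraries against 17 to 40 (median 22.5) with DMSO, a difference of 1.60 ± 0.44 with an adjusted p of 0.0841. Frat1, an inhibitor of GSK3, was 7, 19 and 10 against 0 to 9 (median 1). The mitochondrial ribosome gene Mrps14 was 882, 1079 and 1152 against 634 to 851 (median 781.5), a difference of 0.44 ± 0.12 with an adjusted p of 0.0738. Fosb and Mrps14 did not overlap with DMSO, while Frat1 did, at low values. The other 2, Rpl38-ps2 and Gm10269, are annotated as pseudogenes and may take reads of their parent genes.

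Same-numbered libraries deviated together, as some differently numbered ones also did, and the replicate number was also fitted as a block. With this pairing 153 genes (1.20%) were lower with AZD-8186, all 29 above among them, and 11 (0.0865%) were higher. The lower count was 64 without AZD-8186 replicate 1, 41 without replicate 3 and 76 without replicate 2 of DMSO set 2, and the higher count fell to 1 without AZD-8186 replicate 2 or 3. Among the higher genes were Fosb (adjusted p = 0.0121, range over its alternatives 0.0121 to 0.843), Cxcr4 (0.0121, 0.0121 to 1) and Cdkn1b (0.0188, 0.0188 to 1). Cxcr4, a chemokine receptor repressed by PI3K signalling through FOXO factors, was 38, 39 and 31 against 2 to 55 (median 10), so its AZD-8186 libraries lay inside the wide DMSO range. Against the mean of the other CKIs its change with AZD-8186 was 0.02. Cdkn1b, the cell-cycle inhibitor p27 and a FOXO target, was 337, 324 and 223 against 158 to 303 (median 195), again overlapping.

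Few of the PI3K pathway genes themselves were called with AZD-8186. Of 9 class I subunit genes 0 were called with or without pairing, with a median log2 fold change of -0.14. Of 38 tested adaptors, phosphatases and effectors (39 listed) 0 were called without pairing and 2 were lower with it, beside 1.20% of all genes. Inppl1, the PIP3 5-phosphatase SHIP2, was 127, 213 and 142 against 237 to 617 (median 396.5), a change of -1.27 ± 0.32 with an adjusted p of 0.0514 without and 0.00123 with pairing (range over its alternatives 0.00123 to 0.69). Plcg2, a phospholipase recruited by PIP3, was 734, 1276 and 1072 against 1090 to 2378 (median 1579.5), with adjusted p-values of 0.373 and 0.0103 (range 0.0103 to 1). All 3 Inppl1 values were below the DMSO libraries, while those of Plcg2 overlapped.

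Of 34 tested FOXO-linked genes (40 listed) 0 were called without pairing, and Cxcr4 and Cdkn1b were the 2 higher ones with it, beside 0.0865% of all genes, around a list median of 0.13. Pik3ip1, a FOXO-linked inhibitor of PI3K, was 36, 28 and 20 against 23 to 49 (median 37) and overlapped. Klf2, another FOXO-linked gene, was 11, 12 and 8 against 1 to 9 (median 4.5) and was too low to be tested.

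No LPS cytokine or chemokine gene passed the test with AZD-8186, and replicate 1 stood apart in several of them. Of 30 tested genes (34 listed) 0 were called with or without pairing, with changes from -0.59 to 0.20 and a median of -0.18. Tnf was 11406, 5346 and 5968 in replicates 1, 2 and 3 against 6668 to 8932 (median 7597) with DMSO, and the 95% interval of its change was -0.72 to 0.50. Il6 was 1099, 194 and 290 against 337 to 757 (median 568.5), with an interval of -1.23 to 0.49. Il12b was 2396, 891 and 1339 against 1282 to 1936 (median 1657.5), with an interval of -0.74 to 0.39. In these 3 genes replicate 1 lay above every DMSO library and replicate 2 below every one.

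Il10 was 1678, 457 and 575 against 639 to 2089 (median 903.5), with replicates 2 and 3 below the DMSO range. Cxcl10, an interferon-induced chemokine, was 117780, 65319 and 61747 against 56043 to 112277 (median 61486). Ifnb1 was 166, 165 and 142 against 75 to 262 (median 92.5). Replicate 1 was the highest of the AZD-8186 libraries in each of them, and it also had the highest mitochondrial share of the 3. With that share in the paired fit the changes of Tnf and Il6 were -0.13 and -0.39, at adjusted p-values of 0.877 and 0.701 (ranges over their other alternatives 0.682 to 1 and 0.45 to 1).

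The remaining lists held few calls with AZD-8186. Of 60 interferon and interferon-stimulated genes 0 were called without pairing, around a median of -0.19, and 1 was lower with it, beside 1.20% of all genes in that fit, as for the sterol and glycolysis counts that follow. This was Irf8, a transcription factor of macrophage development, at 3768, 1866 and 1358 against 3680 to 7541 (median 4478), with an adjusted p of 0.0274 (range over its alternatives 0.0165 to 1) and overlap through replicate 1. Of 36 tested sterol and fatty acid synthesis genes 1 was lower with pairing, the demethylase gene Cyp51, at 826, 816 and 994 against 999 to 1280 (median 1224.5) (-0.45 ± 0.12, adjusted p = 0.0664 without pairing). Over its alternatives the change of Cyp51 ran from -0.54 to 0.0049, at adjusted p-values of 0.0159 to 0.999. Of 30 glycolysis and hypoxia genes 1 was lower with pairing, Hif1a, at 768, 933 and 1115 against 1196 to 2501 (median 1484.5) (-0.75 ± 0.21, adjusted p = 0.0947 without). The AZD-8186 libraries of Cyp51 and Hif1a all lay below the DMSO range.

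Of 35 immediate-early and MAPK feedback genes Fosb was higher and Plk2 lower with pairing, beside 0.0865% and 1.20% of all genes. Plk2 was also the only call among 27 p53 target genes, and Naglu the only one among 43 lysosome and autophagy genes. The other lists gave 0 calls in either fit, with medians of -0.06 for 20 NF-kB genes, -0.04 for 32 ATF4 stress and tRNA synthetase genes, -0.02 for 24 topoisomerase and deoxynucleotide genes, 0.06 for 24 macrophage identity genes, 0.20 for 9 markers of other cells and -0.15 for 13 mitochondrially encoded genes.

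TG-100115 gave few calls in the test without pairing and very many genes close to the threshold, with Mmp12 as its largest called rise. In that test 3 genes (0.0236%) were higher and 0 (0%) lower, although 3322 genes had an unadjusted p under 0.05 and 1080 an adjusted p under 0.1. The whole distribution was shifted, with a median log2 fold change of 0.16 over all 12714 genes, which became 0.01 when the samples were scaled again by the median of ratios. Changes with TG-100115 are given on the first scale and stand relative to 0.16. All 3 libraries lay above all 6 DMSO libraries in 1060 genes (8.34%) and below them in 146 (1.15%). Against the other 56 CKIs 0 genes were higher (0%) and 0 lower (0%).

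Mmp12, the macrophage elastase (chr9:7344397-7360461), had the largest change of the 3. It was 1096, 1089 and 1464 with TG-100115 against 318 to 594 (median 414.5) with DMSO, a log2 fold change of 1.53 ± 0.31 (SE) and an adjusted p of 0.0378. Anp32a, an acidic nuclear phosphoprotein of chromatin, was 355, 331 and 327 against 191 to 264 (median 245.5) (0.53 ± 0.11, adjusted p = 0.0378). Gm40815, annotated as a pseudogene within the span of Pkd1l1, was 342, 303 and 407 against 161 to 249 (median 173.5) (0.93 ± 0.20, adjusted p = 0.0378). All 3 genes shared 1 adjusted p and none overlapped with DMSO. None of them was called after leaving out any 1 of the TG-100115 libraries, after leaving out replicate 3 of DMSO set 1 or replicate 2 or 3 of DMSO set 2, or against either DMSO set alone, and against the other 56 CKIs the change of Mmp12 was 0.72 (adjusted p = 0.634, range over its alternatives 0.00194 to 0.634).

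Just outside the threshold stood Npy, neuropeptide Y, at 755, 760 and 767 against 502 to 569 (median 535), a difference of 0.50 ± 0.11 with an adjusted p of 0.0512. Ubqln1, a ubiquitin-like shuttle of the proteasome, was 194, 163 and 234 against 78 to 124 (median 117), a difference of 0.83 ± 0.19 with the same adjusted p. Both were separated from DMSO in every library. In the downward direction the smallest p-values belonged to H2-K1, Bcl10, P2rx4, Rffl and Mif4gd, at adjusted p-values of 0.0537 to 0.0546. H2-K1, an MHC class I gene with close relatives that may share its reads, was 15800, 15213 and 12942 against 17284 to 26535 (median 18448). Bcl10, a signalling adaptor upstream of NF-kB, was 2424, 2590 and 2250 against 2937 to 3174 (median 3015). The libraries of these 2 and of P2rx4 (-0.42) and Rffl (-0.60) lay below the DMSO range, and those of Mif4gd (-0.30) overlapped with it.

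With the replicate pairing 1373 genes (10.8%) were higher with TG-100115 and 175 (1.38%) lower. After scaling again by the median of ratios the same fit gave 442 higher and 717 lower, so the balance of directions followed the scaling. List counts given below for this new scaling stand beside these 442 and 717 of 12714 genes, not beside 10.8% and 1.38%. The paired counts also rested on single libraries. They were 4 and 3 without TG-100115 replicate 1, 0 and 0 without replicate 3, and 5 and 0 without replicate 2 of DMSO set 2, but 2403 and 407 without replicate 1 of DMSO set 2. Without pairing, leaving out replicate 1 of DMSO set 2 gave 1279 higher and 110 lower genes, and leaving out replicate 1 of set 1 gave 304 and 24.

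**Figure D2:**
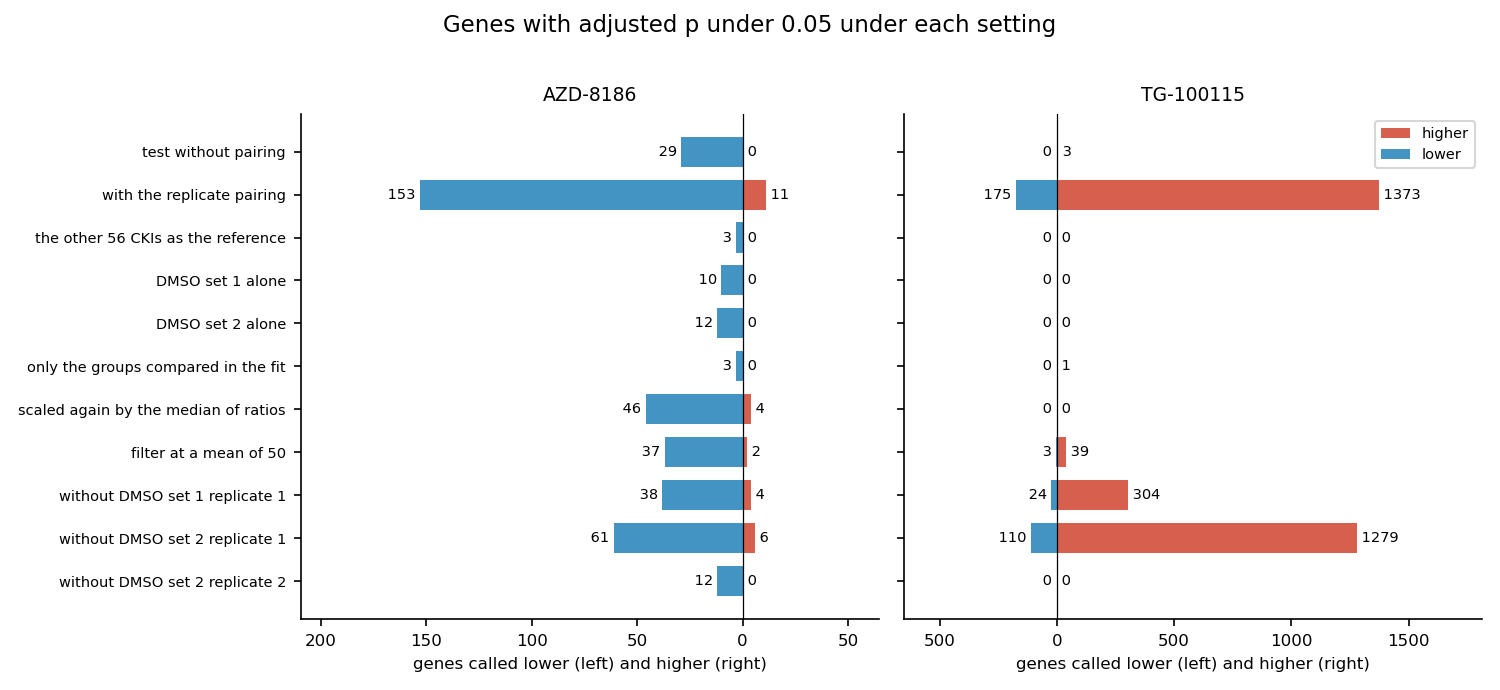
Number of genes with an adjusted p under 0.05 for AZD-8186 (left panel) and TG-100115 (right panel), lower to the left and higher to the right of 0, under 11 settings; the panels have different horizontal scales. In the settings drawn AZD-8186 keeps mainly lower genes, from 3 to 153, whereas TG-100115 goes from 0 calls to 1373 higher genes. The setting with no filter on low values, where AZD-8186 gave 101 higher and 43 lower genes, is not drawn.

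The mitochondrial share also differed between these libraries. It was 1.19%, 0.889% and 1.98% in replicates 1, 2 and 3 of TG-100115, against 0.733% and 1.05% in the DMSO libraries numbered 1, 0.427% and 0.301% in those numbered 2, and 0.523% and 0.548% in those numbered 3, so each TG-100115 library was above both DMSO libraries of its number. Of the 13 mitochondrially encoded genes 0 were called without pairing and 12 were higher with it, against 10.8% of all genes, with a median log2 fold change of 1.63. ND5, a subunit of complex I, was 4722, 2893 and 8071 against 704 to 3601 (median 1166.5) (1.82 ± 0.63). When the share was added to the paired fit, 1 gene remained higher and 0 lower. That gene was Mmp12, with a change of 0.91 and an adjusted p of 0.0294. The share is computed from the 13 mitochondrially encoded genes and was higher with TG-100115. A fit that holds the share therefore cannot tell it apart from the compound.

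**Figure D3:**
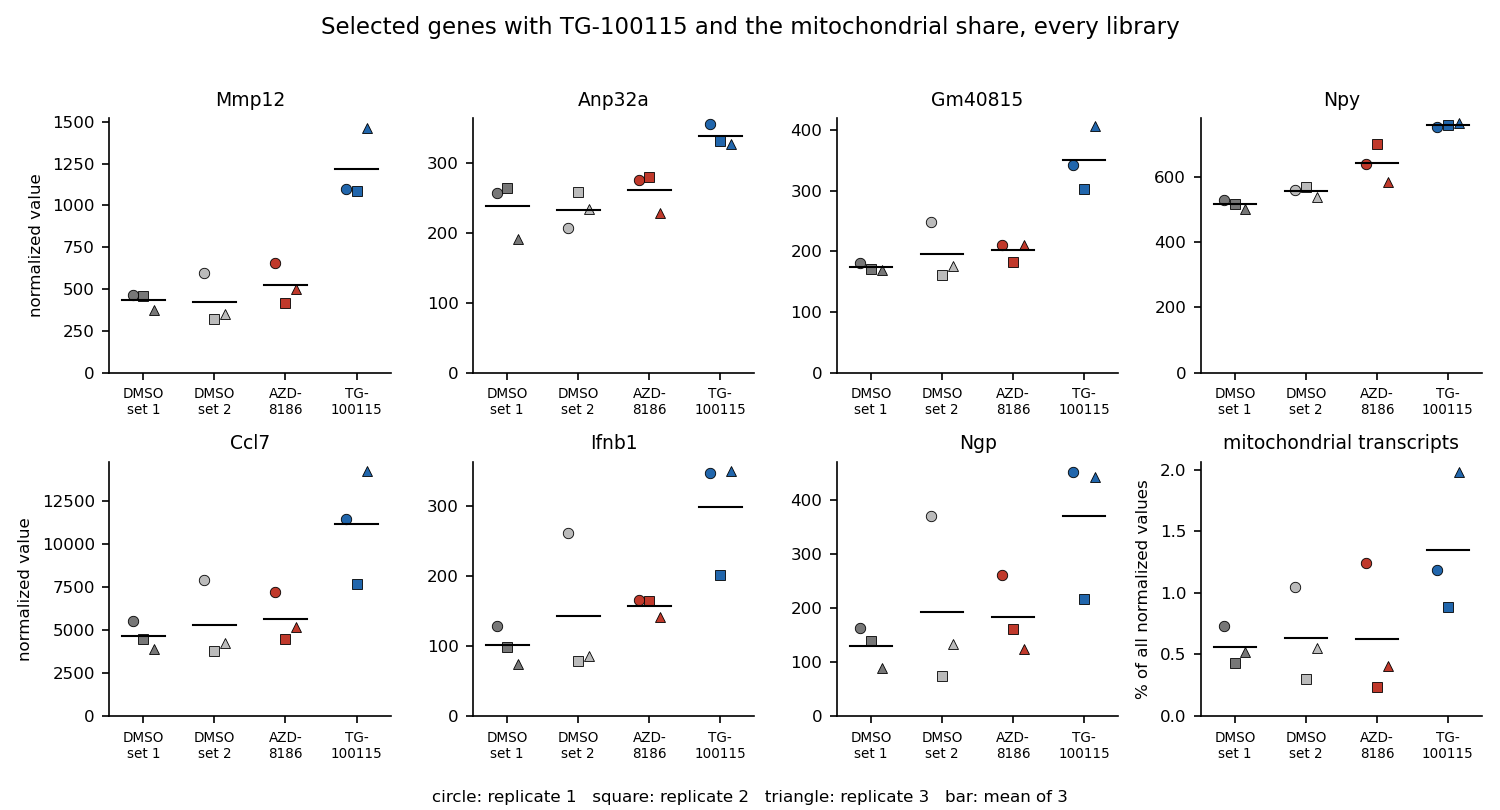
Normalized values of Mmp12, Anp32a, Gm40815, Npy, Ccl7, Ifnb1 and Ngp and, in the last panel, the percentage of all values on mitochondrially encoded genes, in each library of DMSO set 1, DMSO set 2, AZD-8186 and TG-100115; symbols mark replicates and bars are means of 3. The blue TG-100115 points of the first 4 genes lie above all grey DMSO points, while in the others the second TG-100115 replicate overlaps with them.

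Of 9 tested markers of other cell types, 31 listed, 2 were higher with TG-100115 with pairing, beside 10.8% of all genes. Ngp, a neutrophil granule gene, was 451, 216 and 442 against 74 to 370 (median 135.5), with an adjusted p of 0.0377 with pairing (range over its alternatives 0.0377 to 0.654). Camp, which encodes cathelicidin, was 91, 31 and 37 against 7 to 35 (median 18.5), with an adjusted p of 0.0289 (range 0.0289 to 0.695). Both were called with pairing and not without, and both overlapped with DMSO. With the mitochondrial share in the paired fit their adjusted p-values were 0.605 and 0.494. The summed value of 6 neutrophil and precursor genes was 366 to 709 with TG-100115, 237 to 383 with AZD-8186 and 145 to 497 with DMSO, and that of all 31 markers was 5334 to 8597, 3912 to 5684 and 3136 to 7311. Most of the latter sum was 1 gene, Pf4, listed as a megakaryocyte marker. Its means were 6787 with TG-100115, 4546 with AZD-8186 and 4534 with DMSO (2809 to 6761). The sum of all markers is therefore no measure of other cell types. Hba-a1 and Ms4a2, markers of erythroid cells and mast cells, were at 0 in all 12 libraries.

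Of the 24 macrophage genes 2 were higher with TG-100115 with pairing, beside 10.8% of all genes, around a list median of 0.52. Cd68, a lysosomal membrane glycoprotein of macrophages, was 14096, 6733 and 16494 against 3124 to 11311 (median 4741.5), and the scavenger receptor gene Cd36 was 6003, 4071 and 5129 against 1515 to 4804 (median 2493). Both overlapped with DMSO through replicate 2. In a bulk library, more cells of a type and more RNA per cell cannot be told apart, and the part of these markers in the results on TG-100115 was not tested.

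Within the PI3K pathway, TG-100115 gave calls with pairing only, in 1 of 9 class I subunit genes and 6 of 38 adaptors, phosphatases and effectors (5 higher and 1 lower). In the same fit 10.8% of all genes were higher and 1.38% lower, and the shares of both lists are near these. Pik3ca, the alpha isoform, which is not among those the compound is known for, was 188, 114 and 156 against 51 to 127 (median 74.5), a change of 0.98 ± 0.29 with an adjusted p of 0.0624 without and 0.0208 with pairing (range 0.0208 to 0.642). Gsk3b, a kinase inhibited by AKT, was 2214, 1813 and 1873 against 714 to 2014 (median 1193.5). In both genes replicate 2 of TG-100115 lay inside the DMSO range.

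Foxo4 was also higher with pairing, without overlap, at only 42, 16 and 16 against 1 to 13 (median 10), and Tsc1, a subunit of the complex that restrains mTORC1, was higher as well. Akt2 was lower, at 871, 799 and 785 against 892 to 1247 (median 979) (-0.31 ± 0.09), with every library below DMSO. After scaling again by the median of ratios, the paired fit gave 3 higher and 1 lower among the effectors and 1 higher and 2 lower among the subunits. Pik3cd, an isoform this compound is known for, was 1 of these 2, with a change of -0.41 and an adjusted p of 0.0313.

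Of 34 tested FOXO-linked genes 0 were called with TG-100115 without pairing. With pairing 8 were higher and 1 lower, beside 10.8% and 1.38% of all genes (4 and 1 of the list after the new scaling). Tsc22d3, which encodes the glucocorticoid-induced leucine zipper protein, was 128, 103 and 159 against 63 to 96 (median 71.5), a change of 0.80 ± 0.21 with an adjusted p of 0.0537 without and 0.0223 with pairing (range 0.0219 to 0.667). It did not overlap with DMSO. Bcl6, a transcriptional repressor gene, was 387, 307 and 306 against 107 to 319 (median 169.5). Cxcr4 was 44, 30 and 30 against 2 to 55 (median 10). Tob1, an antiproliferative gene, was 27, 16 and 17 against 2 to 16 (median 11). These 3 overlapped with the DMSO range.

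Txnip, the thioredoxin-interacting protein, was also higher, at 863, 690 and 830 against 352 to 749 (median 545.5), with overlap through replicate 2, and its span lies within that of the gene Gm15441. The other higher members were Btg1, Il7r and Cdkn1b. Sod2, the mitochondrial superoxide dismutase and an NF-kB target too, was the lower one, at 9837, 8740 and 7920 against 9923 to 13440 (median 10922) and without overlap. Pik3ip1 was 27, 37 and 26 against 23 to 49 (median 37) and was not called. Klf2 was 5, 11 and 10 against 1 to 9 (median 4.5) and was not tested.

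With TG-100115 the LPS cytokine and interferon genes were again called with pairing only. Of 30 cytokine and chemokine genes 3 were higher and 0 lower (2 and 1 after the new scaling), a share near the 10.8% of all genes that were higher, and the list had a median of 0.39, beside 0.16 over all genes. Ccl7 was 11443, 7694 and 14248 against 3777 to 7874 (median 4351.5), a change of 1.17 ± 0.28 with an adjusted p of 0.0512 without and 0.0206 with pairing (range 0.0187 to 0.634). Ccl2 was 9845, 9386 and 11250 against 6977 to 8431 (median 7788). Ccl12 was 977, 571 and 1444 against 307 to 587 (median 373). All 3 encode ligands of the receptor CCR2. Ccl2 was separated from DMSO in every library, and Ccl7 and Ccl12 overlapped through replicate 2.

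Ifnb1, interferon beta, was 348, 201 and 350 against 75 to 262 (median 92.5), a change of 1.40 ± 0.40 with adjusted p-values of 0.0585 without and 0.0221 with pairing (range 0.0216 to 0.634). Cxcl10 was 115611, 66509 and 110666 against 56043 to 112277 (median 61486) and was not called. Of 60 interferon genes Ifnb1 was the only one called higher and Irf8 the only one lower, beside 10.8% and 1.38% of all genes, around a median of 0.17. After the new scaling 1 was higher and 3 lower. Irf8 was 2899, 2872 and 2019 against 3680 to 7541 (median 4478), with every library below DMSO. Its change was -0.88 and ran over its alternatives from -1.11 to 0.07 (adjusted p 0.0434 to 0.937), so its sign was not kept.

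Tnf was 11198, 8224 and 15213 against 6668 to 8932 (median 7597), with a 95% interval of -0.07 to 1.14. Il6 was 840, 571 and 871 against 337 to 757 (median 568.5), with an interval of -0.31 to 1.40. Il10 was 2261, 1160 and 1886 against 639 to 2089 (median 903.5), with an interval of -0.11 to 1.61. These cytokine genes and Il12b (2118, 1524 and 2454, interval -0.25 to 0.88) were not called, and in each of them replicate 2 was the lowest of the TG-100115 libraries.

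The NF-kB genes called with TG-100115 were all lower. With pairing 5 of 20 NF-kB subunit and feedback genes were lower and 0 higher, beside 1.38% of all genes lower. Without pairing 0 were called. After the new scaling 7 were lower and 0 higher with pairing, beside 717 and 442 of all 12714 genes. Nfkb2, a subunit of the non-canonical pathway, was 3036, 3035 and 2600 against 3201 to 5231 (median 3618), a change of -0.42 ± 0.15. Nfkbib, an inhibitor gene of the pathway, was 3994, 3946 and 3730 against 4295 to 6358 (median 4676), a change of -0.35 ± 0.11. The others were Relb (-0.54), Nfkbie (-0.28) and Nfkbia. All 3 TG-100115 libraries of Nfkb2, Nfkbib and Nfkbie were below the DMSO range. The list median was -0.01, or -0.17 after the new scaling.

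**Figure D4:**
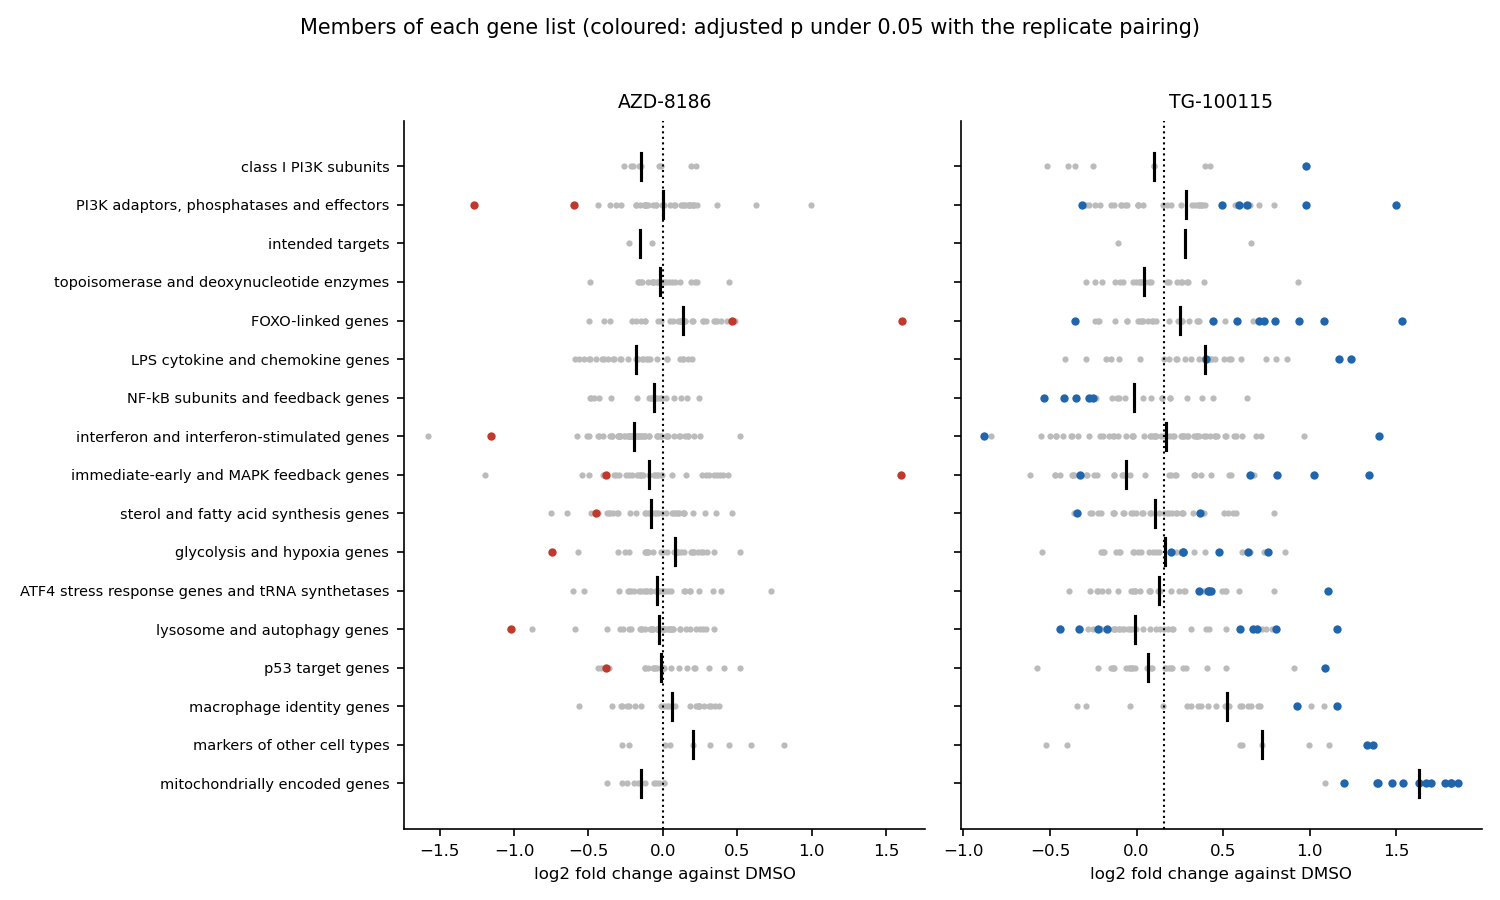
Log2 fold changes against DMSO of the tested members of 17 gene lists for AZD-8186 (left) and TG-100115 (right); each point is a gene, black bars are list medians, the dotted line is the median of all genes, and colored points have an adjusted p under 0.05 with pairing. AZD-8186 medians lie between -0.19 and 0.20, while for TG-100115 the mitochondrially encoded genes lie farthest to the right with a median of 1.63.

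The other lists had calls in both directions or few of them with TG-100115, all with pairing only. Of 35 immediate-early and MAPK feedback genes 4 were higher and 1 lower, beside 10.8% and 1.38% of all genes (2 and 4 of the list after the new scaling). Fosb was 80, 83 and 37 against 17 to 40 (median 22.5), overlapping through replicate 3. Spred2, an inhibitor gene of the ERK pathway, was 83, 71 and 64 against 22 to 63 (median 44). Atf3, the lower one, was 5270, 5525 and 5203 against 5695 to 8642 (median 6557.5). The last 2 did not overlap with DMSO. Spry2 (1.02) and Spred1 (0.66) were the other higher members, and Dusp6 and Egr1 were not called, with intervals of 0.02 to 1.04 and -1.30 to 0.73.

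Of 30 glycolysis and hypoxia genes 6 were higher with TG-100115, beside 10.8% of all genes, but 0 after the new scaling, where 1 was lower. The glycolytic enzyme gene Tpi1 was 5478, 4064 and 7123 against 2313 to 3941 (median 3192.5), and Pgk1 was 3054, 2888 and 3845 against 1836 to 2561 (median 2429.5). Neither overlapped with DMSO. Of 32 ATF4 stress and tRNA synthetase genes 5 were higher (1 higher and 2 lower after the new scaling), beside the same 10.8%. The serine synthesis gene Psat1 was 501, 536 and 666 against 344 to 493 (median 414.5), and the amino acid transporter subunit gene Slc3a2 (0.41) and the stress gene Nupr1 (1.11) were among the others.

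Of 43 lysosome and autophagy genes 5 were higher and 4 lower with TG-100115, beside 10.8% and 1.38% of all genes. After the new scaling 2 were higher and 12 lower, beside 442 and 717 of all 12714 genes. The cathepsin gene Ctsl was 20680, 13734 and 20316 against 7534 to 18579 (median 10525.5) and Lamp1 changed by 0.69. The autophagy receptor gene Sqstm1 was 43430, 49014 and 40769 against 48792 to 75663 (median 60234) and Hexa, a lysosomal hexosaminidase subunit, changed by -0.33. Hexa did not overlap with DMSO, while Ctsl and Sqstm1 did. Of 36 sterol and fatty acid genes Insig2 (0.37) was higher and Cyp51 (-0.34) lower (0 and 1 after the new scaling). Over its alternatives the change of Cyp51 with TG-100115 ran from -0.50 to 0.11. Trp53 itself was the only call of 27 p53 genes (0 after the new scaling), at 1401, 741 and 1887 against 398 to 1027 (median 563), and of 24 topoisomerase and deoxynucleotide genes 0 were called (1 lower after the new scaling). With the mitochondrial share in the paired fit, all 17 lists gave 0 calls with TG-100115. The mitochondrially encoded genes of 1 list make up that share, and the share was tied to the compound. The lost calls therefore cannot be assigned to either.

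The values of the compounds for each other's genes are set side by side here without a comparison. Over the 29 genes lowered by AZD-8186 the log2 fold changes with TG-100115 ran from -0.41 to 0.58 with a median of -0.14, and in all 29 at least 1 TG-100115 library fell inside the DMSO range. Ogfr was 170, 222 and 109 with AZD-8186 and 702, 1531 and 609 with TG-100115. Cyth1 was 116, 148 and 106 and 395, 478 and 288. Mmp12 was 656, 418 and 503 with AZD-8186, where its change was 0.31 (-0.31 to 0.93), and 1096, 1089 and 1464 with TG-100115. Cxcr4 had changes of 1.61 (0.56 to 2.65) and 1.54 (0.49 to 2.59), and Fosb of 1.60 (0.73 to 2.47) and 1.34 (0.47 to 2.21). Against the mean of the other CKIs instead of DMSO, the changes of Cxcr4 were 0.02 with AZD-8186 and -0.05 with TG-100115. Those of Fosb were 0.57 and 0.31. With either compound Cxcr4 was thus close to its mean with the other CKIs, and a link of these rises to PI3K was not tested. The changes against DMSO share the 6 DMSO libraries and were obtained at different concentrations, so they do not test a difference between the compounds.

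Values of the PI3K/mTOR inhibitor Omipalisib, the mTOR inhibitor AZD2014 and the AKT inhibitor MK2206, each with 3 libraries against the same DMSO libraries and at concentrations of their own, are given in the same way. Over the 29 genes lowered by AZD-8186 the log2 fold changes had a median of -1.56 (-2.62 to -0.20) with AZD2014, -0.99 (-2.13 to 0.70) with MK2206 and -0.35 (-1.35 to 0.54) with Omipalisib. For Ogfr the change was -2.62, -2.13 and -0.96 with these 3 compounds in this order. For Was it was -1.89, -0.87 and -0.72, and for Cyth1 -1.92, -1.26 and 0.29. Mmp12 had changes of 1.92, 1.55 and 1.86, beside 1.53 with TG-100115. The 29 genes were chosen for low values against these same DMSO libraries. With AZD-8186 their median was -1.10 against DMSO and -0.56 against the mean of the other CKIs, which include these 3 compounds. The change of Mmp12 with TG-100115 was likewise smaller on that reference, at 0.72. On average the other CKIs thus also differed from DMSO in these directions, and whether the values are particular to this pathway was not tested.

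Cxcr4 had a change of 4.83 with Omipalisib and Ifnb1 one of 3.67. The 95% intervals of Hmgcs1, an enzyme gene of sterol synthesis, were -0.61 to -0.10 with AZD-8186 and -0.27 to 0.24 with TG-100115. The mitochondrial share was 0.642% to 1.96% in the MK2206 libraries, 0.667% to 1.05% in those of Omipalisib and 0.435% to 0.815% in those of AZD2014.

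**Figure D5:**
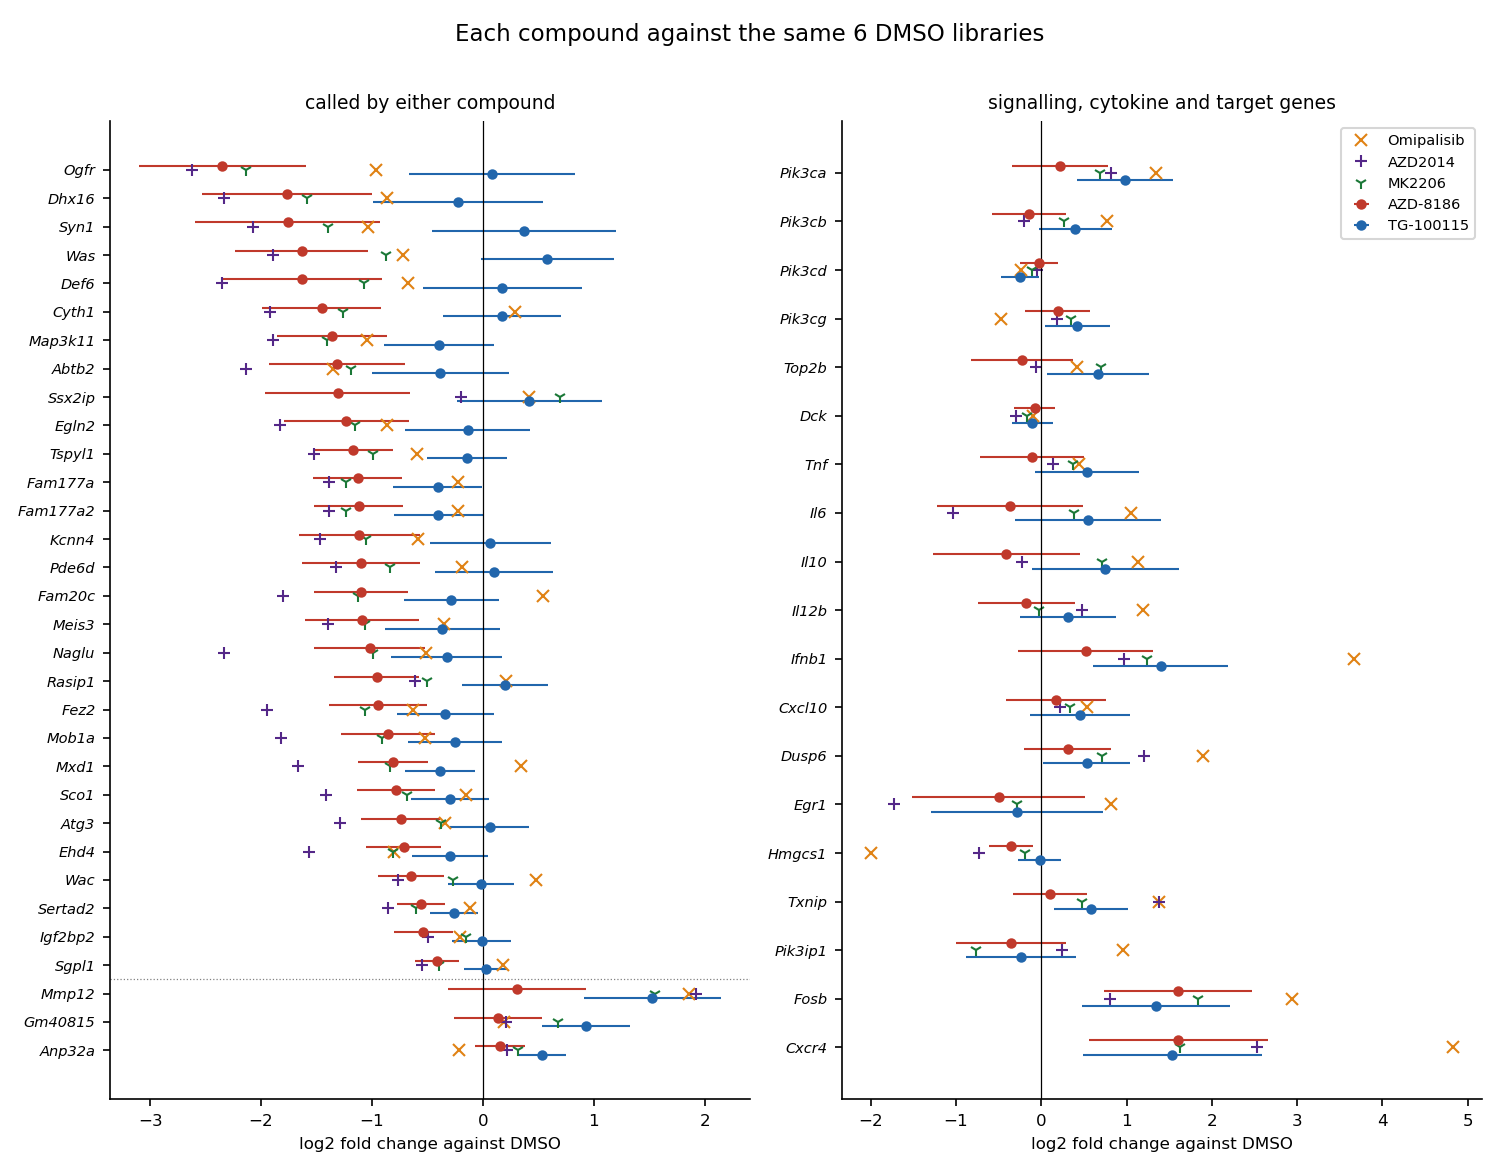
Log2 fold changes against the same 6 DMSO libraries for the genes called with AZD-8186 (above the dotted line on the left) or TG-100115 (below it) and for signalling, cytokine and target genes (right); red and blue points are AZD-8186 and TG-100115 with 95% intervals, and the other symbols are Omipalisib, AZD2014 and MK2206, each from 3 libraries. The genes on the left were chosen by an adjusted p under 0.05 in the same fit, so the intervals of the compound that called them lie off 0 by that choice. The AZD2014 symbols lie to the left of 0 in all 29 genes lowered by AZD-8186.

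By number of genes called in the test without pairing, AZD-8186 was 27th and TG-100115 36th of the 58 CKIs. With pairing they were 30th and 15th.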

How the data were processed

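RNA-seq was analysed for AZD-8186 and TG-100115 (3 libraries each) and 6 DMSO libraries, fitted within all 180 libraries of the series. PolyA RNA had been amplified by SMART-seq2 and tagmented with an in-house Tn5. According to the study's methods and the submitters' processing notes, the authors aligned reads to mm10 with TopHat2 2.1.1, removed those in blacklisted regions with bedtools 2.29.2, counted the rest per gene on a RefSeq annotation with R/Bioconductor packages, and scaled the libraries on genes that varied little, before their own test with DESeq2 in R 3.6.2. The deposited table holds these scaled values, rounded to whole numbers by the authors, and is treated as a score for 45070 genes. Whole reads could not be recovered, so depth is known only as the total of the values, and no count test was run. Nothing in the protocol keeps the strand of the reads, and 9 of the 29 genes called with AZD-8186 and 2 of the 3 called with TG-100115 overlap another gene.

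Here limma 3.58.1 (R 4.3.3) was fitted to log2(value + 1) over 59 groups with a variance trend, for 12714 genes with a mean of at least 10. P-values were adjusted by Benjamini-Hochberg over these genes, with a threshold of 0.05, and fold changes on this scale understate changes of low genes. In simulated data with 12714 genes and 200 changed ones, 60% of log2 changes of 1 and 99% of changes of 2 were found for AZD-8186 with 6 false calls, and 68% and 96% for TG-100115 with 8 false calls. The simulated noise was independent between genes and libraries, with no replicate effect and no shift of whole libraries. The real libraries share deviations across genes, so these figures hold for the simulated setting only. Same-numbered compound and DMSO libraries deviated together from their group means, with correlations across genes of 0.600, 0.191 and 0.271 (AZD-8186) and 0.482, 0.464 and 0.306 (TG-100115). As each was above 0.1, the numbers were taken to pair the libraries, although AZD-8186 replicate 2 correlated more with the DMSO libraries numbered 3 (0.292). Other differently numbered pairs also passed 0.1. These were AZD-8186 replicate 3 with DMSO number 2 (0.165) and TG-100115 replicates 2 and 3 with DMSO numbers 3 and 1 (0.111 and 0.113). This criterion alone does not single out the replicate number. A fit with a replicate block is given beside the test without pairing where it changes a result. Named genes were up to 10 called rises and falls per compound without overlap, the 5 smallest p-values where fewer than 5 genes passed in a direction, called members of 17 gene lists (up to 4 per list and direction, and after seeing the values also those called with the block) and 19 genes of the pathway and the LPS response. The other called genes were added after their values were seen. The members and lists were chosen with earlier results of these data known. Some of these genes are not reported here. Alternatives were other pseudocounts, filters, scalings, references and sets of libraries. Figures were drawn with matplotlib in Python 3.11.15.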

Additional observations from a re-analysis of the deposited data

Results flagged for a closer look

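Each named gene was examined for a DMSO library standing apart from the other 5 by Dixon's criterion, which chance alone meets in about 1 of 20 groups. It was met in 14 of the 135 genes examined. Replicate 1 of DMSO set 2, which had the highest mitochondrial share of the DMSO libraries, stood apart in 7 of them: Cyp51 at 999 (others 1199 to 1280), Gm40815 at 249 (others 161 to 180), Ifnb1 at 262 (others 75 to 129), ND5 at 3601 (others 704 to 1776), Ngp at 370 (others 74 to 162), Plk2 at 1394 (others 1004 to 1122) and Trp53 at 1027 (others 398 to 615). Replicate 2 of DMSO set 2, which had the lowest mitochondrial share of the DMSO libraries, stood apart in 6: Atg3 at 341 (others 215 to 258), Hif1a at 2501 (others 1196 to 1684), Naglu at 2812 (others 1212 to 1748), Pgk1 at 1836 (others 2316 to 2561), Rffl at 819 (others 520 to 612) and Tomm40 at 960 (others 318 to 464). Replicate 3 of DMSO set 1 stood apart in Pik3cg at 321 (others 796 to 973).

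The AZD-8186 falls of Atg3, Naglu and Tomm40 are measured against a DMSO group with 1 high library, and all 3 AZD-8186 libraries lay below the other 5 DMSO libraries as well. For the TG-100115 values of Gm40815, Ifnb1, Ngp, ND5 and Trp53 the library that stood apart was the DMSO library nearest to TG-100115. What sets these libraries apart was not tested.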

How the results depend on the processing

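The counts for AZD-8186 (0 higher, 29 lower) and TG-100115 (3 higher, 0 lower) did not keep their size, and the main direction turned in some settings, for AZD-8186 with no filter (101 higher and 43 lower) and for TG-100115 with the block after the median of ratios. Higher genes with AZD-8186 numbered 1 with a pseudocount of 0.5, 101 with no filter, 2 with a filter at 50, 4 after the median of ratios and 11 with the replicate block. Lower genes with AZD-8186 numbered 46 after the median of ratios, 10 and 12 against DMSO set 1 and set 2 alone, 3 against the other 56 CKIs, 3 with only the compared groups in the fit, 153 with the replicate block and 18 with a log2 fold change of at least 1. Higher genes with TG-100115 numbered 274 with no filter, 39 with a filter at 50, 0 after the median of ratios, 0 against either DMSO set alone, 0 against the other 56 CKIs, 1 with only the compared groups, 1373 with the replicate block and 1 with a log2 fold change of at least 1. Lower genes with TG-100115 numbered 7 with no filter, 3 with a filter at 50 and 175 with the replicate block. The comparison of the DMSO sets gave 153 genes with no filter and 0 in its other settings. Leaving out libraries gave 0 to 6 higher and 6 to 61 lower genes with AZD-8186, and 0 to 1279 higher and 0 to 110 lower genes with TG-100115.

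Further settings of the paired fit were chosen after seeing the data. With the replicate block and the median of ratios, TG-100115 gave 442 higher and 717 lower genes. With the block and the mitochondrial share, AZD-8186 gave 21 higher genes and 189 lower, which include all 11 and all 153 of the paired fit, and TG-100115 gave 1 and 0. With the block and the other 56 CKIs as the reference, the counts were 0 higher and 13 lower for AZD-8186 and 0 and 1 for TG-100115. With the block and DMSO set 1 alone they were 1 and 26 for AZD-8186 and 41 and 0 for TG-100115, and with set 2 alone 8 and 101 for AZD-8186 and 28 and 1 for TG-100115. Leaving out single libraries from the paired fit gave 1 to 17 higher and 41 to 179 lower genes for AZD-8186 and 0 to 2403 higher and 0 to 407 lower genes for TG-100115. The cause of these differences was not tested. Of the values of single genes under other settings, 250 passed the threshold where the reported one did not and 290 no longer passed it. None of these changed sign. Among the remaining values the sign changed in 42 labelled as the same and in 8 labelled as moved. Of the 29 genes lowered by AZD-8186, 17 were called in most of their settings and 0 in all of them. Depth is known only as the totals of the values. A change of 1 on the log2 scale was found in 60% of the cases simulated for AZD-8186, with independent noise that the real libraries do not have.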
